A study of Mus musculus with 4 samples.

Results

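The genes of TGF-beta, activin and SMAD signalling were followed in mouse 3T3-L1 preadipocytes, an established cell line, with and without knockdown of lamp2a. The 35 genes were taken from a list of the pathway's ligands, extracellular binding proteins, receptors, SMADs, SMAD regulators and targets. A probe was assigned to a gene through its RefSeq accession, and the brightest probe stands for the gene. All 35 were found among the 20956 genes named on the array, and 34 were well above background on all 4 arrays. Bambi, which encodes a decoy receptor without kinase activity, was not well above background on any array and was not compared.

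RNA came from control 3T3L1 preadipocytes and from 3T3L1 preadipocytes labelled lamp2a-, each sampled at confluence (day 0) and at day 2. Both kinds of cell grew in medium with 10% heat-inactivated serum, and from day 0 the day 2 cultures also received 160 nM insulin, 250 nM dexamethasone and 0.5 mM 1-methyl-3-isobutylxanthine, the hormone mixture that starts fat cell differentiation. LAMP2A is the lysosomal receptor of chaperone-mediated autophagy. Each of the 4 groups had 1 array, so a difference has no replicate check, no p-value is given, and calls rest on size alone: at least 2-fold between 2 arrays. The sources used here do not give how the knockdown was made or whether the cells were 1 clone, and no culture without hormones at day 2 is among the samples, so hormones and time cannot be told apart.

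TGF-beta and the activins are secreted dimers that bind a type II receptor kinase, which activates a type I receptor. The type I receptor phosphorylates a receptor SMAD, which joins the common SMAD4 and enters the nucleus. Inhibitory SMADs, ubiquitin ligases and nuclear corepressors limit the signal. TGF-beta is stored in the matrix in a latent complex with binding proteins, and activins are held by follistatins. In preadipocytes TGF-beta is known as an inhibitor of differentiation and an inducer of matrix and contractile genes.

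Day 0 is written as before and day 2 as after induction where a sentence gives all 4 arrays. Values are scaled signals, that is, the processed signal divided by the 75th percentile of its array. They compare arrays for 1 gene and are not compared between genes, and a sum over markers weighs its brightest probes most. Over probes printed 10 times, the median SD of log2 ratios between spots was 0.06 to 0.07 for bright and 0.31 to 0.41 for dim genes, which leaves out the spread between cultures. Bright genes are the 11394 with a mean level above 95% of 1072 olfactory receptor genes, which serve as a floor, and 31 of the 35 members were among them. That floor was not level, since the olfactory receptor genes had a median processed signal of 11.2 in control cells at day 0 and of 23.8 to 39.8 in the others. The same array sat on slide 1 by itself and the other 3 on slide 2, so in comparisons with that array the group cannot be told apart from the slide. Of the targeted gene, the probe annotated to NM_001017959 was lower with knockdown, by 4.13-fold at day 0 and by 3.51-fold at day 2, while the probe annotated to NM_010685 read 1.29-fold and 1.08-fold lower. All 10 preadipocyte and fibroblast markers were well above background on every array. With knockdown 2 of the 10 were past 2-fold lower at each day, beside 3.10% and 3.61% of bright genes, and none was past 2-fold higher. Lum was lower at both days, by 3.88-fold and 3.62-fold, Thy1 by 2.98-fold at day 0 and Pdgfrb by 2.06-fold at day 2. Of the 10, 5 read above 0 and 5 below at day 0, and 2 above and 8 below at day 2. Pdgfra was 1.71-fold and 1.35-fold higher. Of the markers of other cells, 5 of 5 macrophage and 3 to 5 of 5 endothelial markers were well above background on an array. So were 2 to 4 of 5 epithelial and 4 or 5 of 5 skeletal muscle markers. Only 2 macrophage, 2 endothelial, 1 epithelial and 1 skeletal muscle marker were bright. With knockdown 4 of 5 skeletal muscle markers were past 2-fold higher at day 0 and none at day 2, beside 18.3% and 2.89% of all genes. Of compared epithelial markers, 3 of 4 were past 2-fold higher at day 0 and 0 of 2 at day 2. Of 5 macrophage markers, 1 was higher and 1 lower at day 0, and 1 was lower at day 2. At day 0, 1 of 5 endothelial markers was past 2-fold higher, and none at day 2.

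Knockdown cells differed from control cells at both days in a few genes of the pathway by a large factor, while most core components lay within 2-fold. Tgfbi, which encodes a secreted matrix protein induced by TGF-beta, was far lower at both days. Ltbp2, of the latent TGF-beta binding protein family, was lower at both days, and Inhbb, the activin B subunit gene, was higher at both. At day 2 the ligand gene Tgfb2 was also higher, Inhba and Smad6 were lower, and Smad3 passed 2-fold by a narrow margin.

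**Figure D1:**
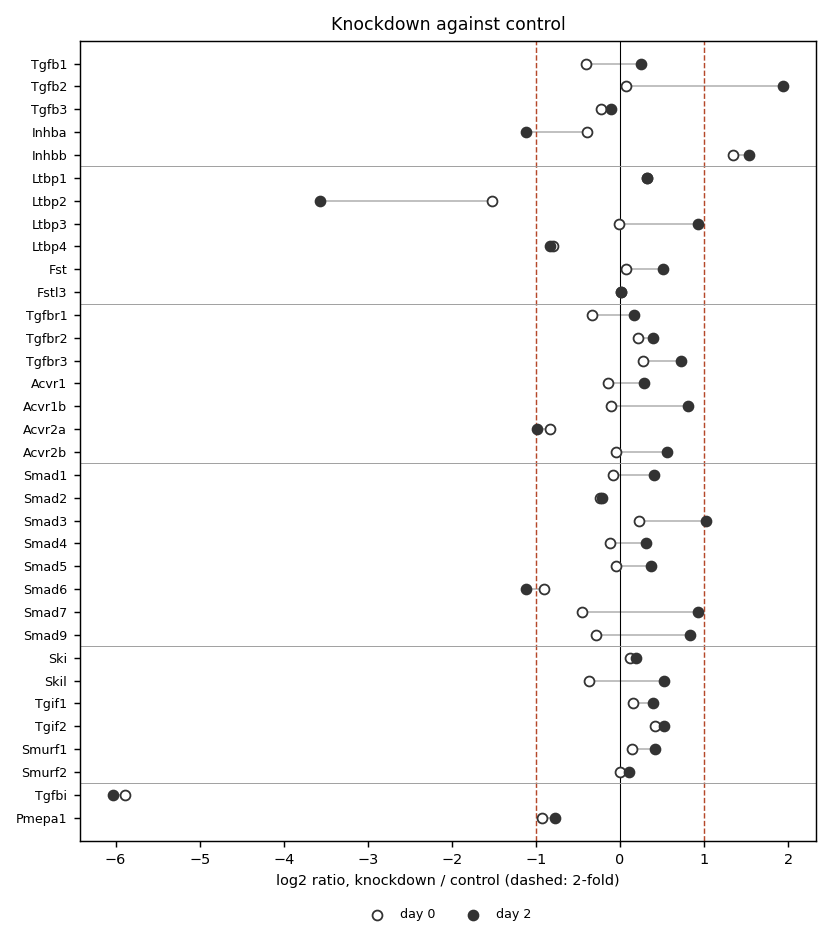
Log2 ratio of knockdown to control cells (x axis) for the 34 compared genes (y axis), grouped by role from ligands at the top to targets at the bottom, with 1 array per group. Open points are day 0 and filled points day 2, and dashed lines mark 2-fold; Tgfbi lies near -6 at both days and Ltbp2 at -1.52 and -3.57, while 3 genes at day 0 and 7 at day 2 lie on or outside the lines.

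At day 0, 3 of 34 members were past 2-fold, against 22.5% of all 19270 compared genes and 8.72% of bright genes. Because 31 of the members were bright, bright genes are the closer background, and the members' share of 8.82% was near it. Inhbb was higher and 2 were lower, directions that held 18.3% and 4.20% of all genes and 5.63% and 3.10% of bright genes. Among all called genes 81.3% were higher in this scaling, 45.9% after quantile and 36.2% after cyclic loess normalization. The members' median log2 ratio was -0.09, beside 0.12 over all genes and -0.02 over bright genes. At day 2, 7 of 34 were past 2-fold, or 20.6%, against 6.87% of 18561 compared genes and 6.63% of bright genes. Of these, 3 were higher and 4 lower in knockdown cells, against 2.89% and 3.98% of all genes and 3.02% and 3.61% of bright genes. The members' median log2 ratio at day 2 was 0.34, beside 0.00 over all genes and 0.04 over bright genes. Above 0 were 25 of 34 members and 6332 of 11394 bright genes.

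The 4 genes with the largest knockdown ratios are shown with the 250 bases before their annotated start sites, so that the elements near those starts can be seen. Sequences are from RefSeq on build GRCm38.p6 and read 5′ to 3′ on the strand of the gene. Capitals mark CAGAC, the SMAD box, or its complement GTCTG. The windows are chr13:56609336-56609585 (plus strand) for Tgfbi, chr12:84876492-84876741 (minus strand) for Ltbp2, chr1:186705990-186706239 (minus strand) for Tgfb2 and chr1:119422249-119422498 (minus strand) for Inhbb.
Tgfbi: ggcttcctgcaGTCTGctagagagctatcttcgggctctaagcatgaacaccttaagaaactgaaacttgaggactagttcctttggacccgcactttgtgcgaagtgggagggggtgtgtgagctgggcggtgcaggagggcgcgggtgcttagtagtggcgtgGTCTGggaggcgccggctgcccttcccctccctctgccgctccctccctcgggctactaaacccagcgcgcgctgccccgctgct
Ltbp2: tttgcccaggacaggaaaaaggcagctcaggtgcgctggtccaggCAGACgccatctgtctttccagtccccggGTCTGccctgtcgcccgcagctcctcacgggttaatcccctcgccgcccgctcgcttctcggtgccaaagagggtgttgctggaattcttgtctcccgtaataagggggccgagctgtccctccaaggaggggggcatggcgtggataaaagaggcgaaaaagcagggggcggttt
Tgfb2: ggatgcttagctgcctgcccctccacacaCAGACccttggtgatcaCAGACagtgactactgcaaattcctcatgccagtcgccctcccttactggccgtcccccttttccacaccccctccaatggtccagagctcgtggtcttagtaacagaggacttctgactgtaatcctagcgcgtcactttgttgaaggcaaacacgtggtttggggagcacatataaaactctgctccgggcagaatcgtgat
Inhbb: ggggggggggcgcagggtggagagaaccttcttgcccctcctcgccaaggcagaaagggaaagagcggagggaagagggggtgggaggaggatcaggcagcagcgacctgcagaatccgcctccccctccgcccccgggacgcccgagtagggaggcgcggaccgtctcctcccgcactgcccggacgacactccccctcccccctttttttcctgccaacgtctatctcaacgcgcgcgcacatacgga

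Tgfbi has SMAD boxes that begin 239 and 85 bases before its start site, Ltbp2 205 and 176, and Tgfb2 221 and 204. In the Inhbb window no SMAD box was matched. Searched on both strands, CAGAC was matched in 42.2% of all 32851 promoter windows of this length, and at least 2 matches in 11.7%. Among the members, 26 of 35 were covered, with 36 windows, of which 17 held the motif, or 47.2%. Member windows on a chromosome set aside were left out of this count, while the count over all windows kept that chromosome. The member share and the share of all windows are therefore not over like sets. The Tgfb2 window also holds CACGTG, an E-box searched on both strands, 51 bases before the start, and TATAAA, searched on the gene's strand, 31 bases before it, elements found in 6.02% and 7.59% of all windows. A match is a description of letters and not of binding.

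Between knockdown and control cells, 1 of 5 ligand genes was past 2-fold at day 0 and 3 at day 2 (Tgfb2 and Inhbb higher, Inhba lower). Of bright genes, 8.72% were past 2-fold at day 0 and 6.63% at day 2. Tgfb2 encodes TGF-beta 2, an isoform that depends on the co-receptor betaglycan for strong receptor binding. Its scaled signal was 2.73 in control and 2.87 in knockdown cells before induction, and 1.73 and 6.63 after it. The knockdown day 2 array was therefore the highest and the control day 2 array the lowest. Knockdown cells differed from control cells by 1.05-fold at day 0 and were 3.83-fold higher at day 2. In control cells Tgfb2 read 1.58-fold lower at day 2 than at day 0, and in knockdown cells 2.31-fold higher. The second Tgfb2 probe went the same way, with log2 ratios between knockdown and control cells of 0.19 before and 2.05 after induction.

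Inhbb, whose product forms activin B, had scaled signals of 1.90 in control and 4.81 in knockdown cells before induction, and of 0.545 and 1.58 after it. Knockdown cells were higher at both days, by 2.53-fold and 2.90-fold, and both kinds of cell were lower at day 2, by 3.48-fold in control and 3.04-fold in knockdown cells. Inhba, whose product forms activin A, read 4.99 (control) and 3.80 (knockdown) before induction, then 3.42 and 1.57. Knockdown cells were lower, by 2.17-fold at day 2 and by 1.32-fold at day 0. The 2 activin subunit genes therefore had knockdown ratios of opposite sign at both days.

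Tgfb3, the third TGF-beta ligand gene, differed by day and little by knockdown. Before induction it read 10.9 in control and 9.32 in knockdown cells, and after it 3.33 and 3.10. Day 2 was 3.29-fold lower in control and 3.01-fold lower in knockdown cells. Its probe was printed 10 times, with an SD between spots of 0.05 to 0.07 (log2 ratio) in the 4 comparisons. Tgfb1, the isoform most studied in fibrosis, stayed within 1.42-fold in those 4 comparisons. It had scaled signals of 0.496 and 0.375 (control, knockdown) before and 0.446 and 0.531 after induction. The corresponding SD, also over 10 spots, was 0.06 to 0.09.

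**Figure D2:**
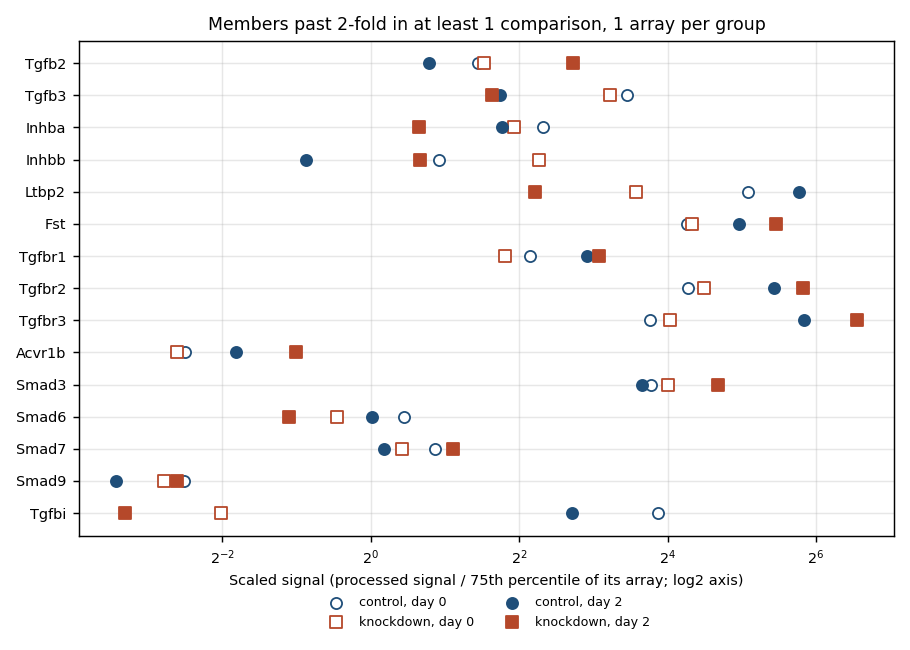
Scaled signal on a log2 axis (x axis, processed signal over the 75th percentile of its array) for the 15 members past 2-fold in at least 1 comparison (y axis), 1 array per group. Circles are control and squares knockdown cells, open at day 0 and filled at day 2; Tgfbi and Ltbp2 have both squares to the left of both circles, and in Tgfb2 the filled square stands to the right of the other 3 points.

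Of the 6 genes for extracellular binding proteins, Ltbp2 had the largest differences. LTBP2 associates with fibrillin microfibrils and, unlike its relatives, is not known to carry latent TGF-beta. Its scaled signal was 34.0 in control and 11.9 in knockdown cells before induction, and 54.7 and 4.62 after it. Both knockdown arrays lay below both control arrays, with a ratio of 2.86-fold at day 0 and 11.8-fold at day 2. The days moved in opposite directions, 1.61-fold higher at day 2 in control cells and 2.57-fold lower in knockdown cells.

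Fst encodes follistatin, which binds and blocks activins. Fst read 19.1 (control) and 20.1 (knockdown) before induction and 31.1 and 44.2 after it. It was 2.20-fold higher at day 2 in knockdown and 1.63-fold higher in control cells. The former was a log2 ratio of 1.14, which was 0.96 after quantile and 0.93 after cyclic loess normalization. Ltbp4, a carrier of latent TGF-beta 1, was lower in knockdown cells at both days by 1.74-fold and 1.78-fold, short of the size that calls a gene. Ltbp3 was 1.01-fold lower at day 0 and 1.90-fold higher at day 2, with a second probe at log2 ratios of 0.11 and 0.93. Ltbp1 and the dim gene Fstl3, a further activin binder, stayed within 1.39-fold in all 4 comparisons.

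None of the 7 compared receptor genes was past 2-fold between knockdown and control cells at either day, beside 8.72% and 6.63% of bright genes. Over time, 2 of the 7 were past 2-fold higher at day 2 in control and 4 in knockdown cells, beside 7.60% and 6.17% of bright genes. Tgfbr3 encodes betaglycan, the co-receptor that presents TGF-beta 2. Control and knockdown cells had 13.6 and 16.4 before induction, and 56.9 and 94.1 after it. Both day 2 arrays lay above both day 0 arrays, by 4.19-fold in control and 5.72-fold in knockdown cells. At day 2 the knockdown culture was 1.65-fold above the control culture.

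Tgfbr2, the type II TGF-beta receptor gene, had 19.4 and 22.4 before induction, and 43.1 and 56.6 after it. It was 2.23-fold higher at day 2 in control and 2.52-fold higher in knockdown cells at its brightest probe, while a second probe had log2 ratios of 0.63 and 0.40. Tgfbr1, the type I receptor gene, had 4.43 and 3.51 before induction, and 7.51 and 8.44 after it. Day 2 was 1.70-fold higher in control and 2.40-fold higher in knockdown cells, and the second probe of this gene had a log2 ratio of 0.52 in knockdown cells. The size of both receptor differences therefore depends on the probe, and their direction was shared.

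Of the activin receptor genes, Acvr1b, which encodes the type I receptor ALK4, had 0.176 (control) and 0.164 (knockdown) before induction, and 0.285 and 0.498 after it. It was 1.62-fold higher at day 2 in control and 3.04-fold higher in knockdown cells. Acvr2a, a type II receptor gene, was lower with knockdown, by 1.78-fold before and by 1.99-fold after induction, and its second probe gave log2 ratios of -0.98 and -1.39. Acvr2b differed by at most 1.81-fold and Acvr1, a type I receptor gene, by at most 1.22-fold in the 4 comparisons.

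Between knockdown and control cells at day 0 no SMAD gene was past 2-fold, beside 8.72% of bright genes. All 8 read lower at day 2 than at day 0 in control cells, as did 5484 of 11394 bright genes. None of the 8 was past 2-fold there, beside 15.4% of bright genes. The SMAD genes had a median log2 ratio over time of -0.43 in control and 0.21 in knockdown cells, where 6 of 8 were above 0. The control arrays lay on different slides and the knockdown arrays on the same slide. In the other settings tried, 7 or 8 SMAD genes were below 0 in control cells and 5 or 6 above 0 in knockdown cells. Second probes in control cells were at 0.06 for Smad1 and below 0 for Smad3, Smad4 and Smad5. In knockdown cells those of Smad1, Smad3 and Smad5 had log2 ratios of -0.02, -0.05 and -1.02, and that of Smad4 0.11. Smad3, a receptor SMAD of the TGF-beta and activin branch, had 13.7 (control) and 16.0 (knockdown) before induction, and 12.6 and 25.6 after it. It was 2.02-fold higher in knockdown cells at day 2, whereas its second probe had a log2 ratio of 0.19, and 5 of 11 other settings put it under 2-fold. Smad2, the other receptor SMAD of that branch, read 1.16-fold to 1.53-fold lower with knockdown at each day and at day 2 in each kind of cell.

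Of the inhibitory SMAD genes, Smad6, which mainly restrains BMP signalling, had 1.37 (control) and 0.730 (knockdown) before induction, and 1.01 and 0.465 after it, and was 1.88-fold and 2.17-fold lower in knockdown cells. Smad7, a feedback inhibitor of TGF-beta receptors, had 1.82 and 1.33 before induction, and 1.13 and 2.16 after it. Knockdown cells were 1.36-fold lower at day 0 and 1.90-fold higher at day 2, so that the difference between the 2 log2 ratios was 1.37. Smad9, a dim gene of the BMP branch, had 0.175 and 0.145 before induction, and 0.0926 and 0.164 after it, and its ratios differed by 1.11 on the log2 scale. Smad4, the common SMAD gene, and Smad5 and Smad1, of the BMP branch, stayed within 1.33-fold in all 4 comparisons.

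None of the 6 genes for SMAD corepressors and ubiquitin ligases was past 2-fold in any comparison, beside 6.63% to 15.4% of bright genes. All 6 read higher in knockdown cells at day 2, by 1.08-fold to 1.44-fold, in the scaling used here, and 5 or 6 did so in the other settings. Of bright genes, 6332 of 11394 read higher at day 2 in the scaling used here. Skil, the corepressor SnoN, which the pathway itself induces, had a knockdown level 1.29-fold lower before and 1.43-fold higher after induction, with an SD between 10 spots of 0.10 and 0.06 on the log2 scale, whereas its second probe read higher at both, at log2 ratios of 0.32 and 0.40. Smurf1, a ubiquitin ligase for SMADs and receptors, was 1.92-fold lower at day 2 in control cells and 1.59-fold lower in knockdown cells, and the corepressor gene Tgif1 was 1.85-fold and 1.56-fold lower. Ski, Tgif2 and Smurf2 differed by at most 1.44-fold.

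Tgfbi had the largest differences of the list. Its scaled signal was 14.7 in control and 0.247 in knockdown cells before induction, and 6.57 and 0.101 after it. The processed signals behind these values were 23300, 411, 8144 and 111, all well above background. The knockdown arrays were lower by 59.3-fold before and by 65.2-fold after induction, and at both days 2 of the 11394 bright genes had a lower knockdown ratio. Within each kind of cell Tgfbi was lower at day 2, by 2.23-fold in control and 2.45-fold in knockdown cells. With normexp background correction the latter was a log2 ratio of -0.80. Pmepa1, a target that dampens SMAD signalling, had 4.96 (control) and 2.61 (knockdown) before induction, and 6.50 and 3.80 after it, and was 1.90-fold and 1.71-fold lower in knockdown cells. Its second probe had log2 ratios of -0.81 and -0.74.

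Over the time course, TGF-beta receptor genes read higher and several ligand genes lower at day 2 in both kinds of cell, and more members passed 2-fold in knockdown cells. In control cells 5 of 34 were past 2-fold, or 14.7%, against 28.0% of 18657 compared genes and 15.4% of bright genes. Tgfbr2 and Tgfbr3 were higher, against 19.9% of all and 7.60% of bright genes, and Tgfb3, Inhbb and Tgfbi lower, against 8.15% and 7.75%. Of all genes called here 70.9% were higher in this scaling, 37.2% after quantile and 30.1% after cyclic loess normalization. In knockdown cells 11 of 34 were past 2-fold, or 32.4%, against 13.9% of 19198 compared genes and 15.4% of bright genes. Of these, 6 were higher (Tgfb2, Fst, Tgfbr1, Tgfbr2, Tgfbr3 and Acvr1b), against 5.00% of all and 6.17% of bright genes, and 5 lower (Tgfb3, Inhba, Inhbb, Ltbp2 and Tgfbi), against 8.94% and 9.22%. Both knockdown arrays lay on the same slide. Members had median log2 ratios of -0.17 in control and 0.26 in knockdown cells, beside 0.02 and 0.08 over bright genes.

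**Figure D3:**
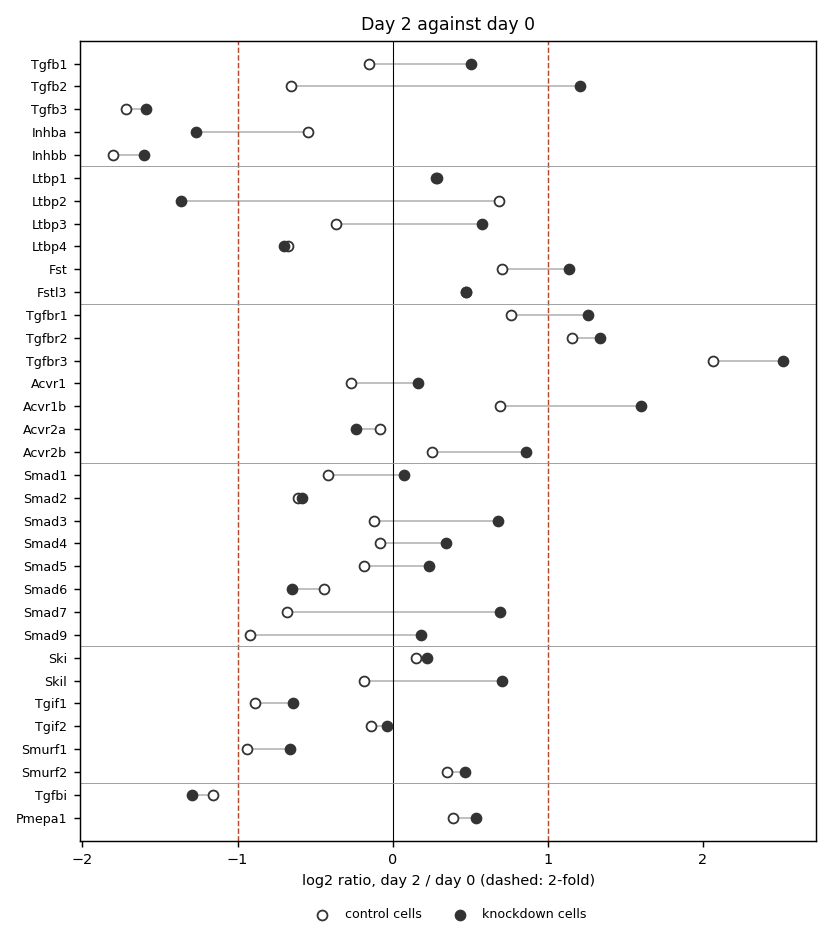
Log2 ratio of day 2 to day 0 (x axis) for the 34 compared genes (y axis), grouped by role, with 1 array per group. Open points are control and filled points knockdown cells, and dashed lines mark 2-fold; Tgfbr3 lies at 2.07 and 2.52, Tgfb3 at -1.72 and -1.59, and Ltbp2 and Tgfb2 have their points on opposite sides of 0.

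The knockdown ratio at day 2 was set against that at day 0 for the 15465 genes that all 4 arrays measured well above background. The difference exceeded 2-fold for 4 of 34 members, against 19.8% of all genes and 9.29% of bright genes. Tgfb2, Smad7 and Smad9 had a higher ratio at day 2, by 1.86, 1.37 and 1.11 on the log2 scale, against 2.90% of all and 2.66% of bright genes. Ltbp2 had a lower one, with a difference of -2.05, against 16.9% and 6.63%. The higher share of all called genes was 14.7%, 44.7% after quantile and 56.9% after cyclic loess normalization. For 26 of 34 members the difference was above 0, as it was for 6637 of 11389 bright genes. Across the settings tried, 22 to 27 members were above 0. The 2 ratios each use different arrays, and the difference was not tested.

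Genes known to respond to TGF-beta did not go one way. Of 30 such genes, knockdown cells had 2 higher and 2 lower by at least 2-fold at day 0, with a median log2 ratio of -0.27, and 3 were higher and 7 lower at day 2, with a median of -0.12. Their shares past 2-fold were 13.3% at day 0, beside 22.5% of all and 8.72% of bright genes, and 33.3% at day 2, beside 6.87% and 6.63%. The contractile genes Tagln and Acta2 were 8.82-fold and 3.86-fold lower at day 0, while Cnn1, also contractile, and the elastin gene Eln, both dim, were 3.20-fold and 2.17-fold higher. At day 2 Acta2 was 15.6-fold lower and Tagln 2.01-fold lower, so the difference was larger than at day 0 for Acta2 and smaller for Tagln. The matrix gene Postn was 7.09-fold lower at day 2 and Thbs1, whose product can activate latent TGF-beta, 3.61-fold lower. Higher at day 2 were the transcription factor genes Junb, by 3.50-fold, and Snai1, by 3.12-fold.

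Snai1 had 4.99 (control) and 7.27 (knockdown) before induction, and 13.6 and 42.4 after it, so that knockdown at day 2 stood above the other 3 arrays. Acta2 had 115 and 29.6 before induction, and 16.4 and 1.05 after it, with the knockdown array the lower of each pair. Acta2, Tagln and Cnn1 are also among the 6 smooth muscle and myofibroblast markers. The scaled signals of the 6 summed to 207 (control) and 51.8 (knockdown) before induction, and to 27.5 and 2.35 after it. Most of the 207 came from Acta2 and Myl9, at 115 and 71.7, so the sums do not stand for all 6. Of those 6 markers 4 were lower and 2 higher at day 0, beside 4.20% and 18.3% of all genes. At day 2, 4 were lower and none higher, beside 3.98% and 2.89% of all genes. The 2 higher at day 0, Cnn1 and Myh11, were dim, and the control day 0 array had the lowest floor. The part of the shift in these markers in the values above was not tested. In bulk RNA, fewer cells of a type and less RNA per cell cannot be told apart. Past 2-fold at day 2, 3.61% of bright genes were lower and 3.02% higher in knockdown cells. Fat cell markers differed too. With knockdown 4 of 8 were lower and 1 higher at day 2, beside 3.98% and 2.89% of all genes. Their median log2 ratio at day 2 was -1.09, with 7 of 8 below 0. Fabp4, a fatty acid carrier gene, was 6.14-fold higher at day 2. It carried the higher sum of scaled signals in knockdown cells (88.1, against 77.7 in control cells). At day 0 Fabp4 was already 5.34-fold higher. Of the 8, 2 were past 2-fold higher and 1 lower at day 0, beside 18.3% and 4.20% of all genes, with a median of 0.05.

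Over time, the responsive genes had 6 members higher and 7 lower in control cells and 5 higher and 6 lower in knockdown cells. These were 43.3%, beside 28.0% of all and 15.4% of bright genes, and 36.7%, beside 13.9% and 15.4%. Sphk1, which encodes a sphingosine kinase, was 5.18-fold and 6.65-fold higher at day 2 in control and knockdown cells, and the proteoglycan gene Vcan 4.91-fold and 6.37-fold. Thbs1 was 7.12-fold and 13.6-fold lower, and Acta2 was lower in both, at log2 ratios of -2.81 and -4.82. The matricellular gene Ccn2 was lower by 4.13-fold and 7.63-fold, and Edn1, a dim gene for endothelin, by 11.2-fold in control and at least 20.5-fold in knockdown cells, where it was not well above background at day 2.

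Genes for the storage and activation of latent TGF-beta had 3 of 16 members higher and 2 lower at day 0 and 1 higher and 1 lower at day 2 in knockdown cells. Past 2-fold were 31.3% at day 0, against 22.5% of all and 8.72% of bright genes, and 12.5% at day 2, against 6.87% and 6.63%. Itgb3, an integrin subunit of latent complex activation, was lower by 2.94-fold at day 0 and by 3.40-fold at day 2, with scaled signals of 5.96 (control) and 2.02 (knockdown) before induction, and 5.05 and 1.48 after it. Lrrc32, which encodes the surface docking protein GARP, was 2.11-fold lower at day 0. Mmp9, a protease gene, was 4.19-fold and 2.54-fold higher, and the fibrillin gene Fbn2 3.97-fold higher at day 0 and 1.07-fold at day 2. Fbn2 had 0.186 (control) and 0.739 (knockdown) before induction, and 0.726 and 0.778 after it. Its control day 0 value stood below the other arrays, and that array had the lowest floor and was alone on its slide. Over time Mmp9 was 12.3-fold lower in control and 20.4-fold lower in knockdown cells, Plat 3.40-fold and 3.46-fold lower, and Furin, the convertase that processes the TGF-beta precursor, 2.07-fold and 2.26-fold higher.

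Further receptors and antagonists had 4 of 17 compared members higher and 4 lower in knockdown cells at day 0 and 1 higher and 2 lower at day 2. That is 47.1% and 17.6%, against 22.5% and 6.87% of all genes and 8.72% and 6.63% of bright genes. The BMP antagonist gene Grem1 was lower at both days. Grem1 had 18.5 (control) and 4.93 (knockdown) before induction, and 12.9 and 4.91 after it, a difference of 3.75-fold and 2.62-fold. Acvrl1, the type I receptor gene ALK1, was 2.48-fold lower at day 0. Dcn, which encodes the TGF-beta binding proteoglycan decorin, was 2.85-fold higher in knockdown cells at day 2. Htra1, a protease gene, and Fmod, which encodes fibromodulin, were 2.90-fold and 2.74-fold higher at day 0, and both were lower at day 2 than at day 0, by 14.9-fold and 9.21-fold in control and 48.7-fold and 29.8-fold in knockdown cells.

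Among SMAD anchors, cofactors and enzymes, 2 of 24 were higher and none lower in knockdown cells at each day, or 8.33%, near the 8.72% and 6.63% of bright genes and beside 22.5% and 6.87% of all genes. Runx1, a transcription factor that partners SMADs, had 0.347 (control) and 0.788 (knockdown) before induction, and 0.156 and 0.876 after it, and was 2.27-fold and 5.60-fold higher in knockdown cells. Trim33, a ubiquitin ligase that binds SMADs, was 2.02-fold higher at day 2, and the dim gene Foxh1 2.62-fold higher at day 0 and 1.08-fold at day 2. Of 11 compared genes for other ligands, 2 were higher and none lower at day 0, and 1 was higher and 1 lower at day 2, the dim genes Inhbc, by 4.42-fold, and Gdf9, by 2.03-fold. Those are 18.2% at each day, beside the same 22.5% and 6.87% of all genes. Gdf15 was 2.10-fold lower at day 2 than at day 0 in control cells and 3.30-fold lower in knockdown cells.

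**Figure D4:**
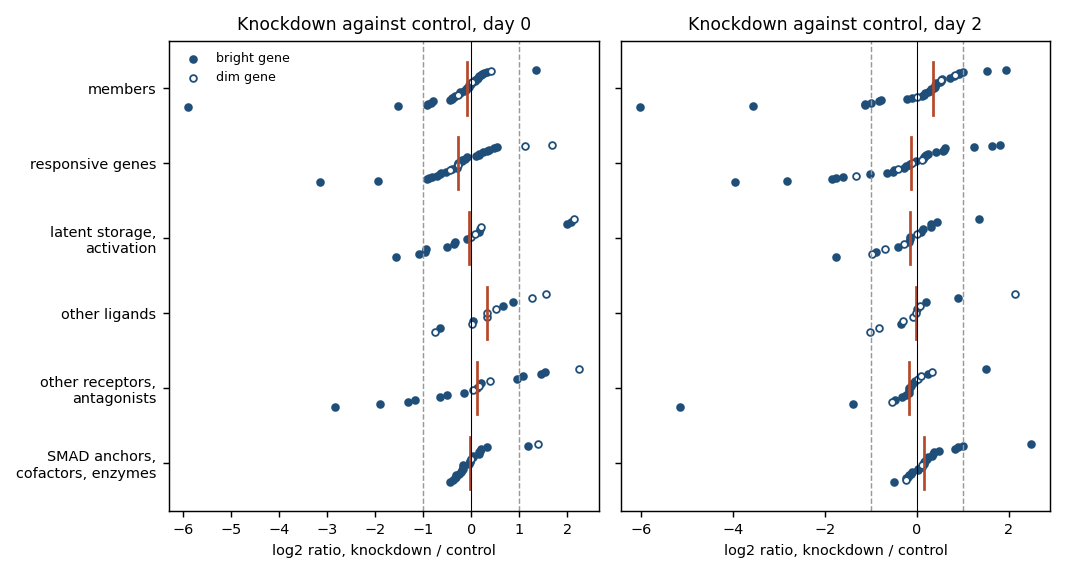
Log2 ratio of knockdown to control cells at day 0 (left) and day 2 (right) for the members and for 5 lists of other genes of the pathway (y axis), 1 point per gene and 1 array per group. Filled points are bright and open points dim genes, vertical bars are list medians and dashed lines mark 2-fold, with points raised in order of value; the medians of the members lie at -0.09 and 0.34 and those of the responsive genes at -0.27 and -0.12.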

How the data were processed

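Total RNA of 4 cultures was hybridised in the Cy3 channel, 1 culture per array, per the labels. The authors deposited scanner output of Agilent Feature Extraction 10.7.3.1 for array design 028005, whose processed signals are linear intensity values with a spatial background subtracted, per the file headers. Signals of 3 arrays, all but knockdown at day 0, were also multiplicatively detrended. The intensity values were not normalised between arrays. Control spots and outlier spots were left out. A level is the log2 of the processed signal over the 75th percentile of the array's non-control spots, and repeat spots were averaged. Accessions without version named 27656 probes for 20972 genes through a RefSeq gene table of GRCm38.p6, used for names only.

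A gene was compared where at least 1 of the 2 arrays was well above background. Where only 1 was, the other array's level was raised, if needed, to the dimmest gene counted as well above background there. With 1 array per group no test was run, and 2-fold calls a gene. All members are accounted for, those past 2-fold with every array, and up to 3 genes per direction, list and comparison were named from the other lists, of which some are not reported here. Members and lists were chosen with earlier results of these data known. Other settings were normexp (offset 50), no detrending, quantile, cyclic loess (3 iterations) and other scalings, stricter and looser handling of dim probes, a median over a gene's probes, kept outliers and a 1.5-fold size. The calling rule was run on simulated data with planted changes and spot error only. That run checks the code and not the spread between cultures, slides or floors. Python 3.11.15, pandas 2.3.3, matplotlib 3.10.9, R 4.3.3 and limma 3.58.1 were used.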

Additional observations from a re-analysis of the deposited data

Results flagged for a closer look

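In 4 genes the day 2 to day 0 log2 ratio had opposite signs in control and knockdown cells, and the knockdown ratios of the days differed by at least 2-fold. For Tgfb2 the log2 ratio at day 2 minus that at day 0 was 1.86, for Ltbp2 -2.05, for Smad7 1.37 and for the dim gene Smad9 1.11. With 1 array per group the difference was not tested, and each uses the control day 0 array, which was alone on its slide.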

How the results depend on the processing

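The number of members past 2-fold stayed within 1.5 times the reported number in all settings but these. Between knockdown and control cells at day 0 it was 6 after cyclic loess normalization, against 3, with 1 higher and 5 lower. With a 1.5-fold size it was 7 at day 0, 15 at day 2, 16 over time in control cells, 19 over time in knockdown cells and 11 for the difference of the knockdown ratios. Of the 30 calls of single members, 24 stayed past 2-fold in every other setting, 6 did not in at least 1 (Smad3 at day 2, Tgfbr2 in both time courses, Fst, Tgfbr1 and Tgfbi in the knockdown time course), and 0 reversed. For Smad3 the values were 0.60 to 1.03. Quantile normalization moved the median log2 ratio of all genes from 0.12 to 0 for knockdown at day 0 and from 0.18 to 0 for the control time course. These medians count ratios set to 0 for genes well above background on only 1 of the 2 arrays. A scaling on the median of bright genes was added after seeing the data. Slide as a block was not run, since the control day 0 array is alone on its slide. No paired analysis was possible because each group holds 1 array.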

Other observations

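Of the 35 members 15 had more than 1 probe. In 7 of 60 comparisons of these genes the probes lay on different sides of 2-fold, and in 1 of those 7 they also had opposite signs: in knockdown cells Smad5 had a log2 ratio of day 2 to day 0 of 0.23 at its brightest probe and of -1.02 at the other. Tgif2 had a log2 ratio of knockdown to control cells at day 0 of 0.42 at the probe used and of up to 1.39 at the others.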
